A study of Mus musculus with 100 samples.

Results

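Promoter regions of the genes that encode proteasome subunits, proteasome activators and proteasome assembly chaperones were examined in ChIP-seq data from mouse bone marrow-derived macrophages (BMDMs) and from bone marrow cells kept in osteoclast culture. A region was taken when its nearest gene was named Psma, Psmb, Psmc, Psmd, Psme, Psmf or Psmg and it lay 2000 bp or less from the transcription start site (TSS), with Psmb8 and Psmb9 left out. Across the 15 tables this gave 449 of 610301 regions, or 449 of the 134605 regions within 2000 bp of a TSS, and they belonged to 43 genes. Of these, 42 encode subunits, activators, an inhibitor or chaperones. The other is Psmc3ip, a recombination cofactor that carries the prefix but is no subunit.

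Binding was measured for 3 DNA-binding factors (p65, PU.1 and Fosl2), for the corepressor NCoR and its partner HDAC3, which removes acetyl groups from histones, for p300, which adds them, and for PGC1β and ERK1, a coactivator and a kinase, together with acetylation of histone H3 at lysine 27 (H3K27ac), which marks active promoters and enhancers. Wild type (WT) BMDMs were given vehicle (Veh) or KLA, an agonist of TLR4, for 6 h. For p300 the libraries titled Veh are described as 0 h of KLA, so that control may not be a vehicle of 6 h. In some experiments cells received DMSO with Veh or with KLA, and KLA was also combined with the HDAC3 inhibitor RGFP966 or the ERK inhibitor LY3214996 (ERKi), which were given from the start of the serum starvation that preceded KLA. H3K27ac was also measured in BMDMs of NCoR flox/flox mice without Cre (the WT of that table) and with LysM-Cre (NKO), and of PGC1b flox/flox mice without and with LysM-Cre. LysM-Cre deletes in myeloid cells, so a deletion may be incomplete in a culture. WT bone marrow cells were grown with the growth factor M-CSF to osteoclast precursors, then given M-CSF and RANKL, which drives osteoclast differentiation. ERK1 and p300 were measured at day 0 and day 4 of RANKL. For ERK1, both day 0 libraries and replicate 1 of day 4 are described as NCoRWT. Replicate 2 of day 4 and the p300 libraries of this culture bear no such label. Each group held 2 libraries described as biological replicates, all from C57BL/6 mice, and it was not stated whether replicates came from separate animals.

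The proteasome degrades ubiquitin-tagged proteins. Its 20S core is a barrel of alpha rings, which gate entry, and beta rings, which hold the proteolytic sites. The 19S particle caps the core, binds ubiquitin chains through its non-ATPase subunits and unfolds substrates with its ring of ATPases. In immune cells, interferon and inflammatory signals are known to raise immunoproteasome subunits such as Psmb10 and the activator PA28, made of Psme1 and Psme2, which favour the production of peptides for antigen presentation.

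Upstream sequences of 3 genes are shown because they carry an ETS motif that was more frequent in these promoters than in all promoters, because Psma6 and Psmc6 carried the most NCoR, and because H3K27ac at Psmc6 and Psmd6 rose with KLA and fell with RGFP966. The sequences are from RefSeq, GRCm38.p6 (mm10), 5′ to 3′ on the strand of the gene, and hold the bases just upstream of the annotated start, with 1 exonic base in Psmc6 and none in the others. Capitals mark the ETS motif CCGGAAG (all 3), the PU.1 motif GAGGAAGT, read on the other strand (Psma6), and the antioxidant response element TGACNNNGC, read on the other strand (Psmc6). GC boxes are not capitalised.
Psma6, an alpha ring subunit, chr12:55398575-55398824, + strand: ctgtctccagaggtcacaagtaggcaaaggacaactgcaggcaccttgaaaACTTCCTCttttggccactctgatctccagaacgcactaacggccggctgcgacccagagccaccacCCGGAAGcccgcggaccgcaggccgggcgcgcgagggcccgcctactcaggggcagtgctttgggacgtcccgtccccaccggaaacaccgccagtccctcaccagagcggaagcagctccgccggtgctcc
Psmc6, an ATPase, chr14:45329574-45329823, + strand: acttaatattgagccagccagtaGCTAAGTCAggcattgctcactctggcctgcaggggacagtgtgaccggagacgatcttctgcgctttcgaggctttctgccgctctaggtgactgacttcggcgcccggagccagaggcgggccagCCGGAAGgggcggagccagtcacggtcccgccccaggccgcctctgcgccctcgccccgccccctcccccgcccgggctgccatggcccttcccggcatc
Psmd6, a non-ATPase subunit, chr14:14120946-14121195, - strand: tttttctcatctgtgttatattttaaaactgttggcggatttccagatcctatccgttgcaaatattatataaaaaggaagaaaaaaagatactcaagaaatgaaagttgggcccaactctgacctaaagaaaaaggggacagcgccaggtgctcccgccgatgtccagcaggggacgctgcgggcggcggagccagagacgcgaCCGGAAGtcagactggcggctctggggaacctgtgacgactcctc

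RefSeq promoter sequence was found for 38 of the proteasome genes, Psmc1, Psmc5 and Psmb11 among them, and for 27025 genes in all, and 10 motifs were searched on both strands. The ETS motif CCGGAAG was present in 14 of the 38 (36.8%) and in 9.93% of all genes. The GC box GGGCGG was present in 57.9% of the 38 and in 38.2% of all genes. The interferon-stimulated response element (ISRE) GAAANNGAA was present in 18.4% and 9.76%, the nuclear respiratory factor 1 motif GCATGCGC in 7.89% and 3.05%, and the PU.1 motif in 7.89% and 3.69%. The antioxidant response element stood in 15.8% and 14%, the CCAAT box in 34.2% and 41.1%, and the AP-1 motif TGANTCA in 5.26% and 8.97%. The NF-kB motif GGGANTTCC, found in 1.92% of all genes, and the cAMP response element TGACGTCA, found in 2.03%, were in 0 of the 38. The PU.1 and ETS motifs share the letters GGAAG, and a match is a description of letters only. Other forms of these motifs were not searched, so a lack of the letters does not show a lack of sites.

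Stretches of 200 bases at the centre of p65 regions are shown next, since these 3 sites had the largest gains of p65 binding with KLA among the members. All 3 lie in the first introns of their genes or, for Psme2, in its second, and none holds an exonic base. Capitals mark the AP-1 motif TGANTCA in Psmd11, the only one of the 4 motifs searched (NF-kB, ISRE, AP-1, PU.1) found in the 3 stretches. For NF-kB only the exact letters GGGANTTCC were searched. Other forms of its site were not, so the 3 stretches may hold such sites.
Psme2, chr14:55590119-55590318, - strand, centre 803 bp after the TSS: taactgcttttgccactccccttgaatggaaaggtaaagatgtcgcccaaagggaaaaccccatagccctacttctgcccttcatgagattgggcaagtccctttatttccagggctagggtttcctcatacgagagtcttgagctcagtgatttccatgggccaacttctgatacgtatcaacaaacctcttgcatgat
Psmd10, chrX:140955638-140955837, - strand, centre 974 bp after the TSS, also inside Atg4a on the other strand: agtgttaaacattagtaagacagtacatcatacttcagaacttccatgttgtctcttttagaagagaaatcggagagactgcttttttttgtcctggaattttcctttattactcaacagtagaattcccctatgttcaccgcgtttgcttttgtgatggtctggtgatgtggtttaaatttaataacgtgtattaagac
Psmd11, chr11:80430469-80430668, + strand, centre 1953 bp after the TSS: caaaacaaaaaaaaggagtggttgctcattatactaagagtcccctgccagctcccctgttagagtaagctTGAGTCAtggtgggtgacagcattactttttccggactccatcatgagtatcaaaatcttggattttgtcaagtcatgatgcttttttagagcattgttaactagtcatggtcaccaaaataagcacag

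Among all 35 member p65 regions, 0 held the NF-kB letters in their central 200 bases. They were in 3.26% of all p65 regions and 3.36% of those within 2000 bp of a TSS. Letters this rare among p65 regions cannot show whether the members lack NF-kB sites. The ISRE letters were in 5 (14.3%), against 11.5% of all p65 regions and 8.08% of those within 2000 bp of a TSS. A 30-base stretch of the ISRE-bearing region in Psmb10 is shown because p65, NCoR and HDAC3 all gained there. It lies in an exon outside the coding sequence, at chr8:105938164-105938193, - strand, with overlapping ISRE letters in capitals: gcaaagacGAAAGTGAAAGAGAAgatgcac

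Promoter regions were found for most of the particle. They covered 7 of 8 alpha genes, 7 of 8 beta genes, Psmb10, 4 of 6 ATPases, 11 of 11 non-ATPase subunits, 4 of 4 activators, the inhibitor Psmf1 and 7 of 7 assembly chaperones. Psme2 had a region in all 15 tables, and Psma6 and Psmd8 had one in 14. The 4 genes with none were the testis subunit Psma8, the thymus subunit Psmb11, and the ATPases Psmc1 and Psmc5. In 11 tables a region named Psmc1 lay within 300 bp of its RefSeq start, but its listed distance was -2255 to -2216 bp, which is outside the rule. The start of Psmc5 was named for its neighbour Ftsj3 in 3 tables, and that of Psma2 for Mrpl32 in 5 of 6, so bidirectional promoters are undercounted.

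Levels are given as tags per 10 M mapped tags of the library. They are not divided by the width of a region, which ran from 202 to 535 bp for the factors. A ranking can therefore in part reflect width, as for Fosl2, where the Psma6 region held 356 bp beside a median of 224. Psma6 was the highest member in 8 of the 12 factor tables, with means over all libraries of 188 for HDAC3, 119 for p300, 68.3 for ERK1, 53.9 for PGC1β and 82.7 for Fosl2. In the table of NCoR with Veh and KLA the highest was Psmc6, at 196, and in the PU.1 table it was Psma5, at 235. The highest p65 level was that of Psme2, at 166. In this paragraph a gene is ranked by its highest region. At the other end, Psmc3 was lowest for NCoR (10.8) and Psme3 for p65 (16.5), though an intronic p65 region of Psme4 stood at 9.47. For H3K27ac in windows of 1001 bp, Psme2 was highest, at 355 and 461 in the RGFP966 and Pgc1b tables, and Psmf1 lowest, at 23.7 and 42. The median member gene, taken at its highest region, was close to the median of all single regions within 2000 bp of a TSS in the factor tables. Examples are 42.7 and 41.7 for NCoR, or 43.9 and 39.2 for p65. A highest region per gene is not the same measure as a single region.

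Library totals ran from 4.3 to 21.5 M tags. Replicate libraries correlated across regions at r = 0.84 to 0.98 for H3K27ac, NCoR with Veh and KLA, HDAC3 and PU.1, and least for ERK1 at day 0 and day 4 (0.47 and 0.48). These values are across regions, which are not independent replicates. Promoters of 7 of 9 macrophage marker symbols, Csf1r and Cd68 included, had a region in the RGFP966 and Pgc1b H3K27ac tables. So did 2 of 3 dendritic cell, 2 of 3 erythroid and 1 of 5 neutrophil markers, and those of B cell, T cell, osteoclast and fibroblast markers had none. Of the 9 symbols, Emr1 is an older name of Adgre1 and had no region under that name. In the NKO experiment a region was held by 4 of these 9 macrophage symbols, Csf1r not among them, and by 1 of 7 osteoclast markers. A p-value here rests only on the spread between the 2 libraries within groups, which the fit pools over the groups fitted together and moderates across regions. That spread may in part be technical. In these bulk cultures, fewer cells of a type and less signal per cell cannot be told apart.

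With KLA, factor binding changed at a minority of the proteasome regions, and the largest gains lay at sites inside Psme2, Psmd10 and Psmd11 rather than at a TSS. A region is named as called when edgeR's adjusted p was under 0.05 and the change over 2-fold. For NCoR, 5 of 43 regions rose and 3 fell, against backgrounds of 23.4% and 16.7% of all NCoR regions, and of 14.3% and 14.1% of those within 2000 bp of a TSS. For HDAC3, 6 of 33 rose and 0 fell, with 27.5% of all regions and 16.8% of TSS regions called higher. For p65, 7 of 35 rose and 4 fell, beside 57% and 5.43% of all regions and 29.2% and 12.5% of TSS regions. For p300, 5 of 33 rose and 2 fell, beside 42.1% and 12.9% of all regions and 20.9% and 17.5% of TSS regions. The shares of members called higher were thus near or below those of other promoters for these 4 factors.

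Fewer members were called for the other factors. For Fosl2 2 of 14 rose (background 11.4%), for PGC1β 1 of 24 (16.4%) and for ERK1 2 of 25 (10.3%). For PU.1 1 of 30 rose and 1 fell, beside 4.53% and 21.7% of all regions. The member median of the log2 difference between KLA and Veh was 0.01 for NCoR, 0.15 for HDAC3, -0.06 for p65, -0.44 for p300 and -0.02 for PU.1, where the medians of all regions were 0.10, 0.27, 1.46, 0.65 and -0.41. Most regions lie farther than 2000 bp from a TSS, unlike the members. Values of all regions, here and below, are thus not a promoter baseline. With TMM scaling, which sets most regions as unchanged, the member medians became 0.02, -0.11, -1.28, -0.95 and 0.40, so the direction of the median rests on the scaling for HDAC3 and PU.1. The median of all p65 regions moved from 1.46 to 0.24 and that of all p300 regions from 0.65 to 0.14. For p65 that scaling left 3 members higher and 20 of 35 lower, beside 11.4% and 50.1% of TSS regions, and for p300 5 higher and 16 of 33 lower, beside 14.7% and 39.7%.

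**Figure D1:**
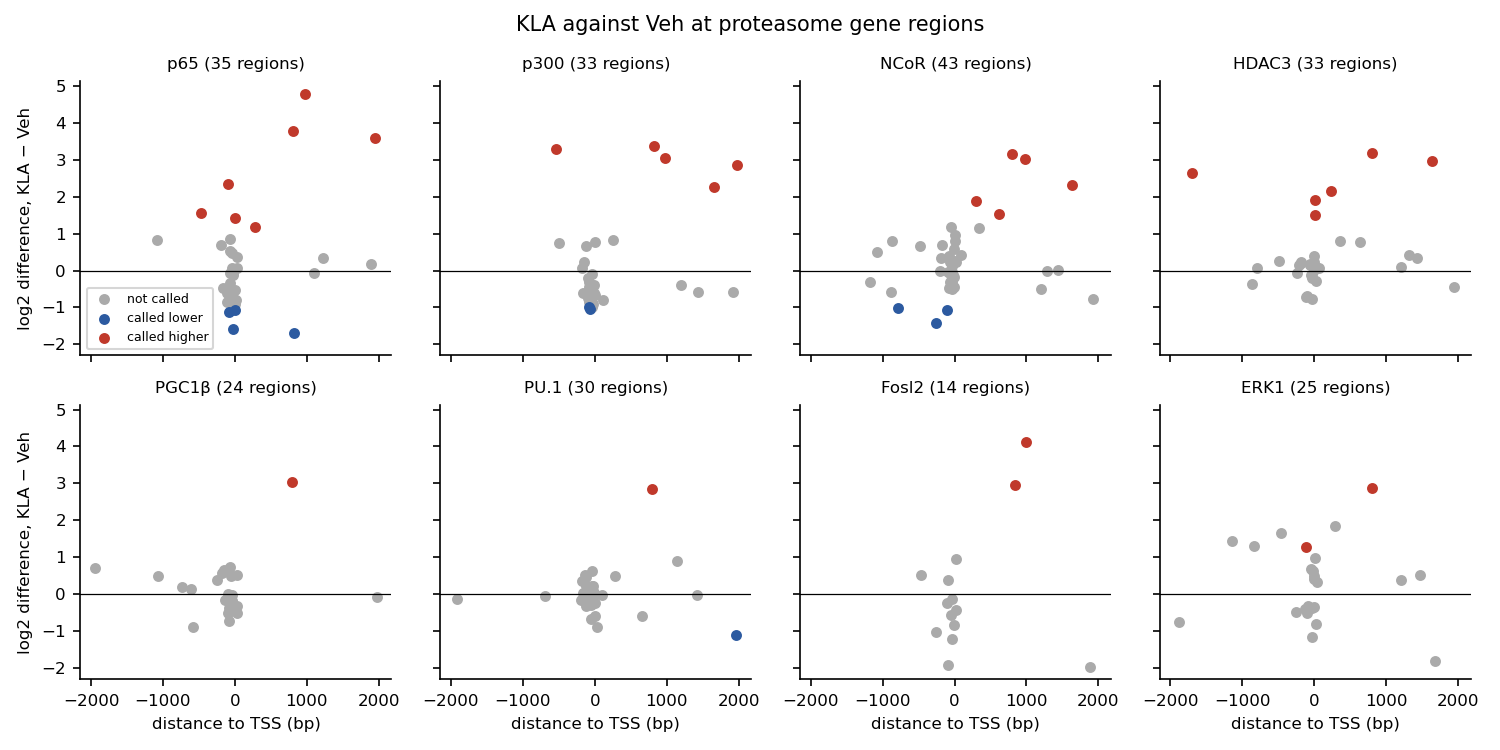
Log2 difference in binding between KLA and Veh (y axis) against the distance of each proteasome region to the TSS in bp (x axis), 1 panel for each of the 8 factors, 1 point per region, with regions called higher in red and lower in blue. The 5 regions called higher for p300 are all farther than 300 bp from the TSS, while the points at the TSS lie around or below 0.

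The 70 sites obtained by merging overlapping factor regions comprised 43 within 300 bp of the TSS and 27 farther away. For p300, 5 of 9 members farther than 300 bp rose and 0 of 24 nearer ones did, and all TSS regions split the same way had 32.4% and 8.63% called higher. For p65 the members gave 4 of 9 and 3 of 26, beside 45.8% and 14.6%. For NCoR they gave 4 of 15 and 1 of 28, beside 21.4% and 7.26%, and for HDAC3 3 of 12 and 3 of 21, beside 26.2% and 7.9%. The limit of 300 bp was chosen after the values had been seen, and no test was made of it.

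The intronic site of Psme2, the beta subunit of PA28, was 1 of 2 sites with a region for each of the 8 factors tested with KLA, and all 8 rose there. p65 there went from 25.4 and 19.6 in the Veh libraries to 291 and 329 in the KLA libraries (log2 difference 3.77 ± 0.26 SE, adjusted p = 1.26e-06). NCoR went from 19.1 and 15.3 to 153 and 156 (3.16 ± 0.30, adjusted p = 6.46e-05), and HDAC3 from 15.3 and 26.5 to 169 and 221 (3.19 ± 0.40, adjusted p = 7.98e-14). p300 rose from 13.8 and 9.86 to 118 and 131 (3.38 ± 0.28). For none of these 4 did a KLA library overlap a Veh library.

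The remaining factors followed at the same Psme2 site. PU.1 rose from 24.8 and 30.5 to 197 and 198 (2.85 ± 0.15) although PU.1 was lower at 21.7% of all its regions. PGC1β rose from 5.29 and 5.58 to 45.9 and 44.6 (3.04 ± 0.46), and from 1.62 and 11.7 to 73 and 52.1 in the DMSO experiment (3.40 ± 0.73). ERK1 rose from 9.44 and 9.25 to 66.4 and 72.1 (2.87 ± 0.53). Fosl2 rose from 14.1 and 15.7 to 60.5 and 174 (2.97 ± 0.88), the widest spread between KLA replicates of the 8, and its call was lost when either Veh library was left out. At the Psme2 promoter itself, 2 bp from the TSS, only HDAC3 (46.6 and 36.5 to 89.7 and 151) and p65 (72.7 and 72.7 to 188 and 198) were called, with log2 differences of 1.51 ± 0.38 and 1.41 ± 0.22. The p65 value there was 0.18 with TMM scaling.

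**Figure D2:**
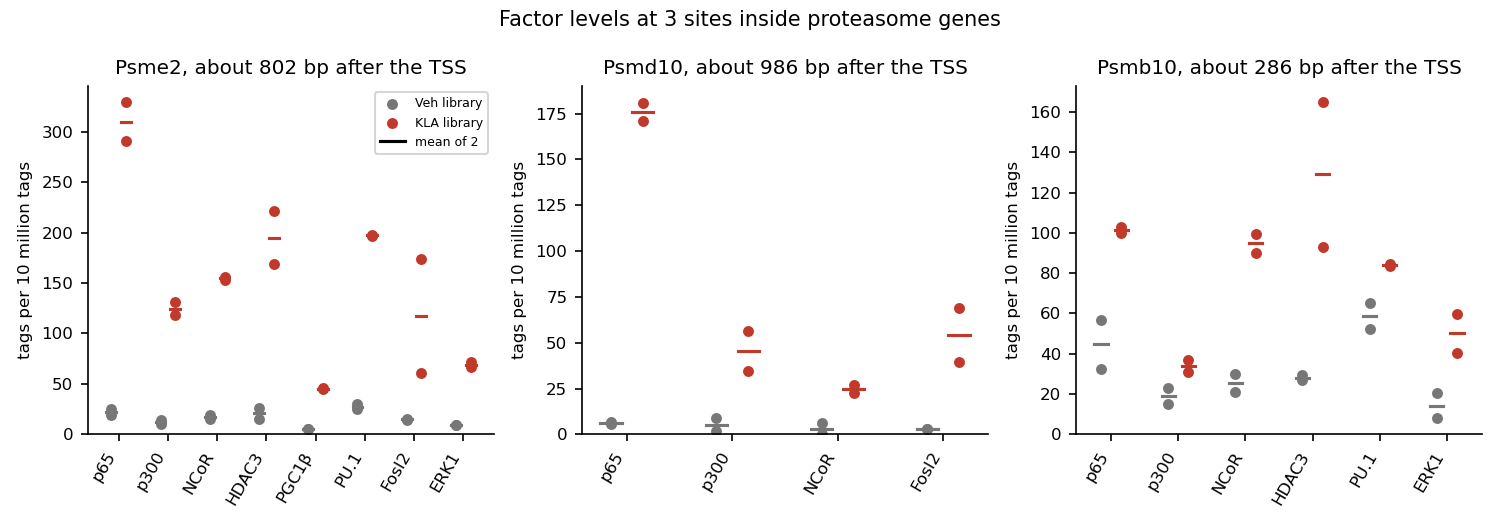
Tags per 10 M tags of each factor with a region at 3 sites inside Psme2, Psmd10 and Psmb10, each point 1 library (grey Veh, red KLA) and each bar the mean of 2. At the Psme2 site every KLA library of every factor lies above both Veh libraries, as p65 does at 291 and 329 against 25.4 and 19.6.

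Psmd10 encodes gankyrin, a chaperone of 19S assembly, and its intronic site also lies within Atg4a, an autophagy protease gene on the other strand. p65 there went from 7 and 5.59 to 171 and 181, a log2 difference of 4.78 ± 0.34 and the largest with counts in both groups among the called members. Fosl2 rose from 2.82 and 3.15 to 39.6 and 69 (4.12 ± 1.14), NCoR from 5.97 and 0 to 26.7 and 22.8 (3.01 ± 0.80), and p300 from 8.78 and 1.97 to 34.8 and 56.2 (3.05 ± 0.52). In the DMSO experiment PGC1β had 0 tags in both Veh libraries and 27.6 and 32.7 per 10 M with KLA, at least 19.5-fold higher when 3 tags over the Veh group are taken as the floor. Veh values at this site rest on few tags, and no KLA library overlapped a Veh library.

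Further sites inside genes gained fewer factors. In Psma1, 1630 bp after the TSS of this alpha subunit, NCoR rose from 8.36 and 0 to 21.1 and 21.4 (2.32 ± 0.80), HDAC3 from 2.91 and 6.08 to 27.5 and 49.2 (2.97 ± 0.67) and p300 from 3.13 and 5.26 to 24.6 and 15.7 (2.25 ± 0.56), the last with its centre in exon 2. In Psmd11, a lid subunit, p65 rose from 1.75 and 4.66 to 36.1 and 43.1 (3.60 ± 0.61) and p300 from 6.89 and 1.31 to 34.8 and 25.9 (2.85 ± 0.58). In Psmd12, also a lid subunit, only NCoR rose, from 19.1 and 7.06 to 37.3 and 38.7 (1.53 ± 0.51). Upstream of the TSS, p65 rose at -478 bp from the start of Psmd4, a ubiquitin receptor, from 18.4 and 26.1 to 73.5 and 57.5 (1.56 ± 0.38, or 0.35 with TMM scaling), and HDAC3 at -1697 bp from that of Psmd3, a lid subunit, from 2.91 and 2.21 to 15.2 and 17.6 (2.63 ± 0.91).

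Psmb10 encodes a catalytic subunit of the immunoproteasome, and its exon 1 site holds the ISRE letters printed above. NCoR rose there from 29.9 and 21.2 to 99.6 and 89.9 (1.89 ± 0.32, adjusted p = 0.00118) and HDAC3 from 26.9 and 29.3 to 93.2 and 165 (2.16 ± 0.40, adjusted p = 5.55e-07). p65 went from 32.4 and 56.9 to 100 and 103 (1.19 ± 0.32), but this turned to -0.02 with TMM scaling. ERK1 (1.85), p300 (0.83) and PU.1 (0.50) were not called at the site. A separate p65 region at -92 bp rose from 3.5 and 16.8 to 52.8 and 48.6 (2.33 ± 0.57).

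Psme1, the alpha subunit of PA28, gained HDAC3 at its promoter, from 16 and 19.4 to 42.2 and 96.6 (1.90 ± 0.46), and PGC1β in the DMSO experiment, from 8.12 and 17.5 to 71.1 and 32.7 (2.05 ± 0.63). A p300 region at -544 bp from its TSS rose from 6.27 and 1.97 to 40.4 and 42.7 (3.30 ± 0.50). NCoR at the Psme1 promoter was 33.7 ± 15.6 (SD, n = 2) with Veh and 50.9 ± 2.50 with KLA and was not called. Of the 4 activator genes, Psme3 and Psme4 had no region called higher. p300 at Psme4 fell from 35.1 and 28.9 to 13.8 and 17.3 (-1.04 ± 0.39), and Psme3 was at 10.7 ± 1.56 and 18.7 ± 1.03 for NCoR.

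At Psma6, the promoter with the most tags in 8 of the 12 factor tables, factors moved both ways. NCoR there fell from 210 and 311 to 126 and 122 (log2 difference -1.07 ± 0.22, adjusted p = 0.00324), while ERK1 rose from 37.8 and 41.6 to 108 and 85.7 (1.28 ± 0.38, adjusted p = 0.0447). HDAC3 there was 230 ± 12.3 and 146 ± 40.1 and was not called, nor was p300 at 110 ± 19.9 and 128 ± 2.83. NCoR also fell at -786 bp from the start of Psma5, from 78.9 in both Veh libraries to 38.1 and 39.4 (-1.02 ± 0.30), and at Psmd1, the largest scaffold subunit of the 19S base, from 39.4 and 41.2 to 17.8 and 12.5 (-1.42 ± 0.44).

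p65 fell at Psmd2, a scaffold of the 19S base, from 77.9 and 52.2 to 24.7 and 19.2 (-1.57 ± 0.38), and at the beta subunit Psmb1 from 48.2 and 34.5 to 17.4 and 20.5 (-1.12 ± 0.42). It also fell in an intron of Psme4, by 1.70 on the log2 scale, and at the chaperone Psmg1, from 74.4 and 45.7 to 29.4 and 27.4 (-1.08 ± 0.38). p300 fell at Psmb7, a catalytic subunit, from 29.5 and 34.2 to 10.7 and 21.1 (-1.0 ± 0.42). PU.1 fell in the first intron of Psma7, from 181 and 192 to 89.6 and 83.5 (-1.11 ± 0.12, adjusted p = 9.78e-16), a site at which NCoR stood at 176 ± 27.5 and 104 ± 0.518, a difference under 2-fold (-0.76 ± 0.21).

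H3K27ac at some of these promoters rose with KLA, at most of them in the DMSO experiment. There 7 of 36 regions rose and 1 fell, beside 6.73% and 28.1% of all regions and 5.32% and 14.7% of TSS regions, and 30 of the 36 differences were above 0. The member median was 0.41, where that of all regions was -0.42. The regions called higher belonged to Psma5, Psmb10, Psme2, Psmc6, Psmd6, Psmd14 and Psmb7. Psma5, an alpha subunit, went from 74.8 and 64.5 to 198 and 167 (1.39 ± 0.23, adjusted p = 2.35e-08). Psme2 went from 235 and 252 to 548 and 485 (1.09 ± 0.20, adjusted p = 1.76e-07). Psmb10 went from 74.8 and 74.1 to 199 and 133 (1.17 ± 0.23), in a window centred in an intron 1330 bp after its TSS. In all 7 both KLA libraries lay above both Veh libraries. With TMM scaling 16 regions rose and 1 fell, beside 11.7% and 7.54% of TSS regions, and leaving out KLA replicate 1 left 3 calls in place of 8.

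In the other experiments the gains were smaller. In WT cells of the NCoR experiment, where regions were 571 bp or shorter, 2 of 35 rose (background 6.49%). Psme1 went from 34 and 41.3 to 79.2 and 93.7 (1.19 ± 0.24) and the deubiquitinase subunit Psmd14 from 31.5 and 32.6 to 71.1 and 62 (1.05 ± 0.27). The difference for Psmb10, called with DMSO, was -0.01 there. In Pgc1b flox cells 2 of 36 rose (5.22%) and 1 fell (25.6%), and in Pgc1b flox Cre cells 3 rose (4.18%) and 1 fell (32.5%). Psma5 and Psme2 were called in both, Psme2 going from 320 and 316 to 669 and 617 without Cre and from 265 and 286 to 628 and 583 with it. Of 28 genes with a region in the WT, DMSO and Pgc1b flox fits, 14 had differences above 0 in all 3 and 1, Psmf1, below 0 in all 3. The member medians were 0.51 in WT and 0.21 in flox cells, with all regions at 0.13 and -0.45.

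The region called lower with KLA in the DMSO, Pgc1b flox and Pgc1b flox Cre fits was in each case the one at -563 bp from the start of Psma1. It went from 57.3 and 51.5 to 17.5 and 21.9 with DMSO (-1.48 ± 0.32) and from 44.9 and 46.4 to 15.9 and 16.1 in Pgc1b flox cells (-1.50 ± 0.33). Its window overlaps the one at -53 bp, which was not called (0.05 with DMSO), nor was the one at 602 bp (0.42). PGC1β at -576 bp was 52.6 ± 1.24 with Veh and 28.7 ± 4.20 with KLA, and was not called (-0.89 ± 0.35).

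In KLA-treated cells, H3K27ac at most proteasome promoters was lower with RGFP966 than with DMSO. Of 36 regions, 23 fell and 0 rose, where 9.53% of all regions and 23.2% of TSS regions fell. The member median was -1.05, that of TSS regions -0.57 and that of all regions 0.39. Both RGFP966 libraries lay below both DMSO and KLA libraries at 33 of 36 regions (91.7%), beside 28.4% of all regions and 60.5% of TSS regions. With TMM scaling 30 regions fell, beside 44.2% of TSS regions, with a member median of -1.38. Without DMSO and KLA replicate 1 the number that fell was 13.

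The calls were spread over the core, the cap and the chaperones. They comprised 4 of 4 ATPase regions, 4 of 5 beta regions, 6 of 9 non-ATPase regions, 4 of 9 alpha regions, 3 of 3 chaperone regions, 1 of 3 activator regions and the Psmb10 region, and not Psmf1 or Psmc3ip. Psmd7, a lid subunit, went from 143 and 125 with KLA to 42.8 and 39.3 with KLA and RGFP966 (-1.71 ± 0.25, adjusted p = 1.45e-10). Psmc4, an ATPase, went from 66.1 and 51.3 to 22.4 and 14.2 (-1.68 ± 0.31), and Psmb1 from 123 and 100 to 44.8 and 30.5 (-1.57 ± 0.25). For all 3 the RGFP966 values were also below those of Veh, which were 82.2 and 66.3, 42.4 and 34, and 90.5 and 110, a difference for which no test was made.

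At the 7 regions raised by KLA, levels with RGFP966 lay on either side of those with Veh. Psma5 had means of 69.6 with Veh, 182 with KLA and 66.2 with KLA and RGFP966, Psmb10 of 74.4, 166 and 81, and Psmc6 of 60.2, 127 and 62.4, each with RGFP966 and Veh libraries that overlapped. Psmd6 (27.7, 58.2 and 18.3), Psmb7 (32, 65.7 and 24) and Psmd14 (60, 124 and 52.8) were below Veh in both libraries. Psme2 was above it, at 244, 517 and 304, and its fall of 0.76 on the log2 scale was under 2-fold (adjusted p = 0.000211). These means share the KLA libraries, so a high KLA value enters both differences.

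Exceptions to the fall were the upstream Psma1 region (0.38 ± 0.34), the inhibitor Psmf1 (0.03 ± 0.37) and the intronic Psma7 region (0.82 ± 0.23), none of them called. At the last, H3K27ac was 77.1 and 75.7 with KLA and 134 and 135 with RGFP966, whereas at the Psma7 promoter it went from 263 and 212 to 98.7 and 92.8 (-1.31 ± 0.22). The summed H3K27ac of the macrophage marker promoters was 3183 to 3903 with KLA and 2437 to 2791 with KLA and RGFP966. That of the neutrophil markers, of which only 1 of 5 had a region, was 17.7 to 35 and 77.2 to 81. That of the erythroid markers was 16.8 to 18.5 and 25.1 to 28.3, and that of the dendritic cell markers 3.24 to 5.05 and 4.61 to 12.9. The part of any of them in the fall was not tested.

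**Figure D3:**
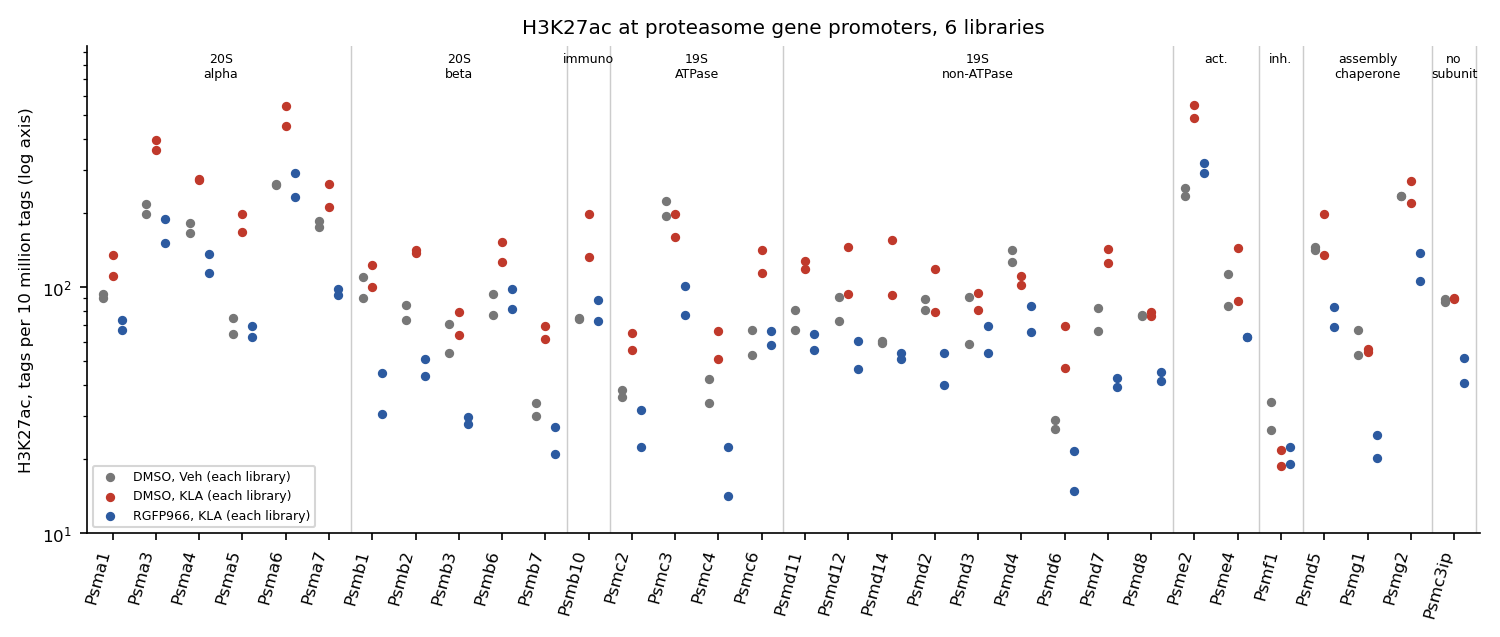
H3K27ac in tags per 10 M tags (log axis) at the highest region of each member gene, in order of role, each point 1 library (grey DMSO and Veh, red DMSO and KLA, blue RGFP966 and KLA). The blue points lie below the red at nearly every gene, as at Psmd7 (42.8 and 39.3 against 143 and 125), and Psmf1 is an exception.

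No proteasome promoter passed the criteria between NKO and WT cells. H3K27ac does not report the deletion itself, which was not checked here. With Veh, 0 of 35 regions were called between NKO and WT (background 1%), and 7 had an unadjusted p under 0.05. With KLA 0 were called (0.789%), with 2 under 0.05, and the KLA response differed between genotypes at 0 (0.697%), with 4 under 0.05. DESeq2 also called 0 in each of the 3. KLA within NKO cells likewise gave 0 calls (10.7%), with 8 under 0.05, while TMM scaling and DESeq2 each gave 4. The member median of the response in NKO less that in WT was -0.46, that of all regions -0.34, and with TMM scaling the member median was -0.12. At Psma5 the Veh values were 12 and 10.2 in WT and 18.4 and 25.5 in NKO cells, and the KLA values 19.5 and 20 and 13.8 and 12.5. The difference in response of -1.58 ± 0.64 gave an adjusted p of 0.243, and counts at this region were low.

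Deletion of Pgc1b gave 0 called members with Veh (0.397%), 0 with KLA (7.52%) and 0 for the difference in response to KLA (5.37%), by edgeR and by DESeq2. Unadjusted p was under 0.05 at 20, 21 and 3 of 36 regions. With KLA all 36 differences were below 0, with a median of -0.43 where all regions had -0.38, and the median became -0.04 with TMM scaling. The largest were Psmc4, from 108 and 77.5 to 50.6 and 52.7 (-0.84 ± 0.21, adjusted p = 0.000292), and Psmb1, from 155 and 208 to 121 and 89.2 (-0.80 ± 0.14), both under 2-fold and at -0.45 and -0.40 with TMM scaling. Summed H3K27ac of the macrophage markers was 3363 to 3471 without and 1677 to 1708 with Cre under KLA. In the same order that of the neutrophil markers was 44.1 to 55.8 and 32.6 to 47. The erythroid markers gave 18.6 to 24.5 and 13 to 21.7, and the dendritic cell markers 0 to 8.57 and 4.33 to 8.47. The part of any of them in the shift was not tested.

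**Figure D4:**
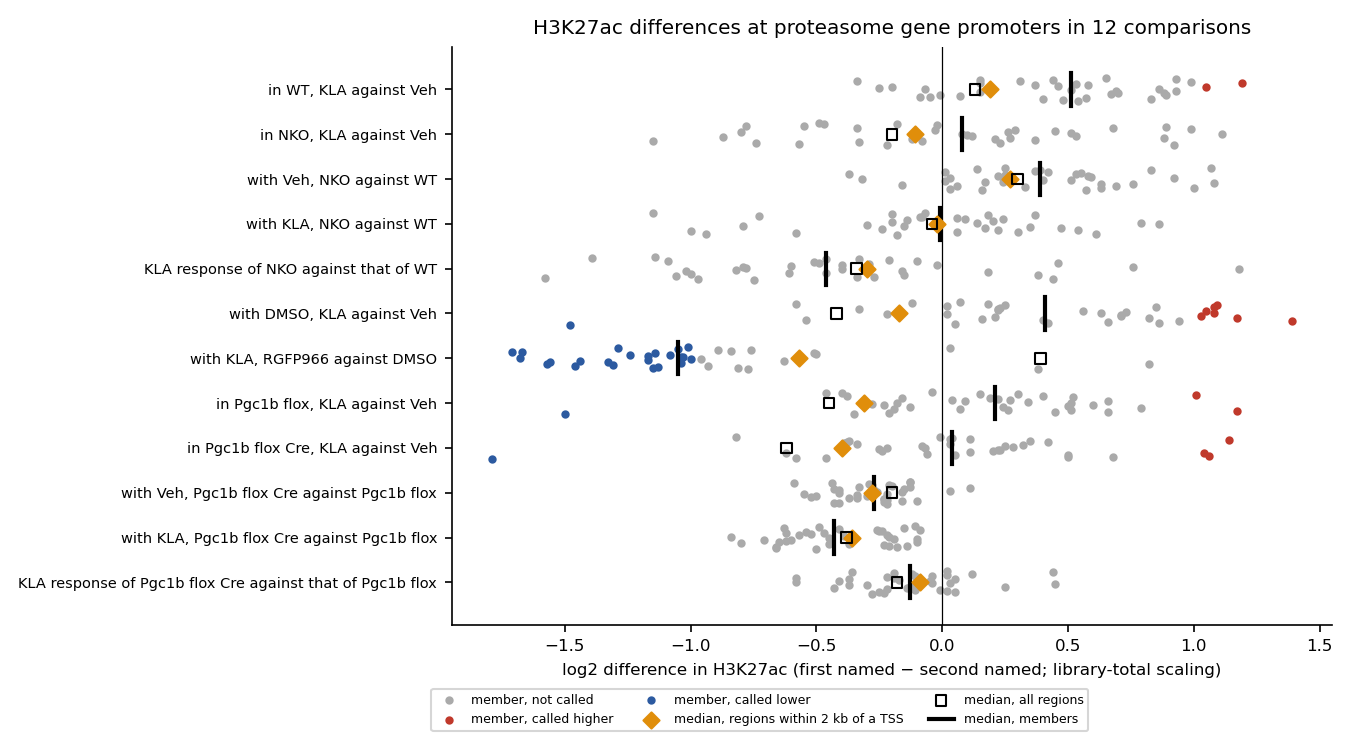
Log2 difference in H3K27ac (x axis) of each proteasome region in 12 comparisons (rows), with called regions in red or blue, the member median as a black bar, and the medians of TSS regions and of all regions as a diamond and a square. In the RGFP966 row the members' median is -1.05 and that of TSS regions -0.57, while for Cre against flox with KLA the members' median of -0.43 is near that of all regions, -0.38.

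ERKi lowered NCoR at 9 of 44 regions in KLA-treated cells and raised it at 0, beside 48.6% of all regions and 38.9% of TSS regions called lower. The member median was -0.77 and that of all regions -1.20. With TMM scaling the member median was 0.39 and 0 regions were called, and with DESeq2 2 were called higher. Psmc6, the highest member in the libraries with KLA alone, went from 187 and 202 to 44 and 72.4 (-1.74 ± 0.25, or -0.57 with TMM scaling). The Psme2 intron went from 153 and 156 to 70.2 and 27.6 (-1.66 ± 0.36), and Psma1 at 1630 bp from 21.1 and 21.4 to 1.69 and 5.17 (-2.60 ± 0.94). The ERKi libraries bear another date than the rest of that table, and the KLA libraries beside them bear no DMSO label. Inhibitor, date and a possible solvent thus cannot be told apart.

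PGC1β binding differed between ERKi and DMSO in KLA-treated cells at 0 of 36 members by edgeR (background 0.286%), with 4 at an unadjusted p under 0.05, and at 1 by DESeq2. Those 4 regions, of Psmc6, Psma5, Psmc4 and Psmd11, were all lower with ERKi. The largest difference was at the Psmc6 promoter, from 82.9 and 67 with DMSO and KLA to 20.3 and 6.46. Its log2 difference was -2.50 ± 0.61 (edgeR adjusted p = 0.0702), or -2.30 with TMM scaling. In the same table KLA raised PGC1β at 4 of 36 (16.4%). Besides the Psme2, Psmd10 and Psme1 regions above, this was the Psmd3 promoter, which went from 46.3 and 35 to 103 and 103 (1.32 ± 0.40). With ERKi the Psmd10 intron stood at 21.9 and 29.7 and the Psme2 intron at 57.9 and 28.4, and at both sites the ERKi libraries overlapped those with DMSO and KLA.

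In osteoclast culture few members had a region. ERK1 between day 4 and day 0 was called at 0 of 9 (background 2.35%), with 0 at an unadjusted p under 0.05 and 0 by DESeq2. p300 rose at 1 of 15, beside 62.2% of all regions. This was an intronic region of Psmd8, a lid subunit, from 11.4 and 14.9 to 48.9 and 46.5 (1.89 ± 0.56, or 0.28 with TMM scaling). Its call was lost without either day 4 library. Member medians were 0.55 for ERK1 and 0.95 for p300, with all regions at 1.00 and 1.84, and TMM scaling turned them to -0.42 and -0.64.

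Other genes of the ubiquitin-proteasome pathway were compared by the same distance rule. With KLA, H3K27ac in WT cells rose at 5 of 26 regions and fell at 0, with 5.26% and 2.52% of TSS regions called higher and lower, and the 5 belonged to Nfe2l1, a transcription factor of proteasome genes, to the maturation factor Pomp, to Nploc4 and to the unfoldase Vcp. With DMSO 1 of 22 rose (Adrm1) and 3 fell (Akirin2 and, at both of its regions, Ubqln2), beside 5.32% and 14.7%. In Pgc1b flox cells 0 of 22 rose and 3 fell, beside 3.23% and 15.9%, in Pgc1b flox Cre cells 1 rose and 2 fell, beside 3.22% and 19.3%, and in NKO cells 0 of 26 rose and 1 fell, beside 2.31% and 5.07%. With TMM scaling 0 of these regions fell with DMSO, in Pgc1b flox, in Pgc1b flox Cre or in NKO cells, and 6, 1, 2 and 3 rose. With RGFP966 7 of 22 fell, among them Adrm1, Sem1, Vcp and Nfe2l1, beside 23.2% of TSS regions. Nfe2l1 was the one of these genes with a region called higher for NCoR, HDAC3, p65 and p300 with KLA. Ribosomal protein promoters, another housekeeping group, also lost H3K27ac with RGFP966, at 23 of 56 regions for the cytosolic ribosome (median -0.86) and 12 of 46 for the mitochondrial ribosome (median -0.78), where proteasome regions gave 23 of 36 (median -1.05). With KLA in the DMSO experiment these 2 lists had medians of 0.09 and -0.12, beside 0.41 for the proteasome, and with TMM scaling 0.52, 0.30 and 0.83.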

How the data were processed

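ChIP-seq of 8 factors and H3K27ac gave 70 libraries with a column in the tables. The 30 input samples of the 100 had none and were not analysed here. Bowtie2 placed the single-end reads on mm10, and HOMER made tag directories from them. The authors deposited raw tag counts per region and library, with at most 3 tags per position and no normalization. For a factor, regions were peaks found in both replicates and joined across its conditions. For H3K27ac, they were open chromatin regions from ATAC-seq. Versions of these programs were not given in the sources used here. Chromatin for factors was fixed with disuccinimidyl glutarate and formaldehyde, that for H3K27ac with formaldehyde alone.

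Groups came from the labels. Counts were scaled by the library totals in the column headers and tested on whole tables with edgeR 4.0.16 (R 4.3.3) by its quasi-likelihood F-test, two-sided, with Benjamini-Hochberg adjustment over all regions that held at least 4 tags (16 for H3K27ac) in 1 library. Of the 449 members all but 1, in the NKO table, passed that filter. Alternatives were TMM scaling, DESeq2 1.42.0, no filter, no fold minimum, TSS regions alone, a replicate block and each library left out. Scripts were tested on simulated data. Named genes were a set fixed by role, up to 3 called regions of lowest p in each direction, and the highest and lowest gene of each table. The members and lists were chosen with earlier results of these data known. Same-numbered replicates did not deviate together (r = -0.026 to 0.021 over 31 pairs of groups). Sites were merged by any overlap. Sequence came from RefSeq on GRCm38.p6. A second day 4 library of ERK1 is numbered 3 in its description and bears another date.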

Additional observations from a re-analysis of the deposited data

How the results depend on the processing

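Counts of called proteasome regions are given as a value under the alternative beside the main count. Without the fold minimum they were 19 for Pgc1b flox and 18 for Pgc1b flox Cre with KLA (main 3 and 4), 10, 20 and 1 for Cre against flox with Veh, with KLA and for the response (main 0 in each), 18 for DMSO with KLA (main 8), 4 for WT and 4 for NKO with KLA (main 2 and 0), 14 for NCoR with ERKi (main 9), 12 for PU.1 (main 2) and 14 for p300 (main 7). With TMM scaling and with DESeq2 they were 7 and 7 for Pgc1b flox, 8 and 8 for Pgc1b flox Cre, 17 and 17 for DMSO with KLA, 1 and 1 for WT, 4 and 4 for NKO, 0 and 2 for NCoR with ERKi (Psmd12 turning from -1.04 to 0.13 and 0.14), 2 and 2 for PGC1β in the DMSO experiment (main 4), 1 and 1 for ERK1 (main 2), 21 and 21 for p300, and 23 and 22 for p65 (main 11, Psmb10 turning to -0.02 with TMM). With TMM p300 at day 4 gave 2 (main 1), and with DESeq2 PGC1β gave 1 for ERKi (main 0) and 2 for KLA (main 1). ERK1 gave 1 among TSS regions alone, and NKO against WT with Veh gave 1 without the filter. The replicate block gave 0 for Fosl2 (main 2) and 1 for KLA in NKO (main 0), and 23 of 25 counts stayed within 1.5 times. Replicates share only a number. The other 3 settings that changed the scaling or the test kept 14 (TMM), 13 (DESeq2) and 14 (no fold minimum) of 25 counts within 1.5 times, and the filter and the TSS restriction kept 24 each. Leaving out 1 library gave 2 to 13 for NCoR, 2 to 7 for HDAC3, 4 to 12 for p65, 0 to 4 for Fosl2, 2 to 3 for PU.1, 1 to 3 for PGC1β, 1 to 2 for ERK1, 6 to 10 for p300, 0 to 8 for p300 at day 4, 1 to 4 for PGC1β with DMSO, 3 to 11 for NCoR with ERKi, 1 to 3 for WT, 0 to 3 for NKO, 0 to 1 for NKO against WT with Veh, 3 to 8 for DMSO with KLA, 13 to 25 for RGFP966, 2 to 3 for Pgc1b flox, 2 to 5 for Pgc1b flox Cre, 0 to 1 for Cre against flox with KLA, and 0 to 0 for the rest. The lowest counts came without KLA replicate 1 for p65, DMSO with KLA and RGFP966, KLA replicate 2 for NCoR, Veh replicate 1 for HDAC3, PGC1β with DMSO and Pgc1b flox Cre, either Veh library for Fosl2, either day 4 library for p300 and either KLA library for NCoR with ERKi. The highest came without Veh replicate 2 for NCoR, KLA replicate 2 for Fosl2 and PGC1β, and day 0 replicate 1 for p300. When an arm holds 1 library, it is assumed to vary like the others. Many changes that passed the adjusted p were under 2-fold and were removed by the fold minimum.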
